A study of Mus musculus with 24 samples.

Results

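The interleukin-6 and colony-stimulating factor axis was taken here as 10 genes: the ligands Il6, Lif, Csf1, Csf2 and Csf3, the receptor chains Il6ra, Il6st and Osmr, the transcription factor Stat3 and its feedback inhibitor Socs3. The members were fixed by name, with earlier results of these data known, and were found in both deposited tables, as 10 of 20555 genes in each. The tables come from mouse brain slices that were given phosphate-buffered saline (PBS) or exosomes, small vesicles released by cells, over 2 days. Exosomes were used at 5 µg per slice and were stained with the green membrane dye PKH67. They came from donors called wild type (WT), knock-out 1 (KO1) or knock-out 2 (KO2), and the series title names CEMIP, a hyaluronan-binding protein of tumour exosomes. The knockouts lie in the exosome donors, so the mouse cells of all groups carry no labelled genetic change. Endothelial cells lacking CD45 and carrying CD31, and microglia carrying CD45 and little CD11b or CD49d, were then sorted. The labels call every sample exosome-positive, the PBS samples included, although those slices received no dyed exosomes.

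Of 24 labelled samples 21 were analysed. The endothelial groups held 3 PBS, 2 WT, 3 KO1 and 2 KO2 libraries. The microglia groups held 3 libraries, except for PBS with 2. Libraries are lettered A to C with no word on whether a letter means an animal, a culture or a day, so p-values measure a spread that may be technical. Libraries of endothelial cells held an estimated 18.3 to 35.5 M reads, and libraries of microglia 19.7 to 40.2 M. The summed level of 12 endothelial markers was 228951 to 301025 normalised counts in sorted endothelial cells and 225 to 935 in microglia. Of these markers, Slco1a4 was listed at 0 in all WT and all KO1 endothelial libraries. Microglia markers summed to 26789 to 36296 in the microglia libraries, where P2ry12 was nevertheless listed at 0 in all PBS, WT and KO2 libraries and Gpr34 in all PBS, WT and KO1 libraries. In the sorted endothelial libraries the microglia markers summed to at most 3244.

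Interleukin-6 binds the receptor chain encoded by Il6ra, and the pair engages the shared signalling chain encoded by Il6st. LIF and oncostatin M use the same shared chain, with the partner chains LIFR and OSMR. The shared chain activates Janus kinases and STAT3, and STAT3 induces Socs3, whose product shuts the receptor down. The colony-stimulating factors act through other receptors: M-CSF (Csf1) keeps microglia and macrophages alive, GM-CSF (Csf2) acts on macrophages, granulocytes and dendritic cells, and G-CSF (Csf3) drives neutrophil production and release. Endothelial cells of inflamed vessels are a known source of IL-6 and of the colony-stimulating factors.

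The genes lie on 5 chromosomes (GRCm38.p6). Il6 (gene 16193) is at chr5:30013114-30019975, Il6ra (16194) at chr3:89869324-89913196 and Il6st (16195) at chr13:112464070-112506860. Csf1 (12977) is at chr3:107741048-107760469 and Osmr (18414) at chr15:6813568-6874968. Chromosome 11 holds Lif (16878) at chr11:4257568-4272514, Csf2 (12981) at chr11:54247270-54249899, Csf3 (12985) at chr11:98700183-98703631, Stat3 (20848) at chr11:100886806-100939594 and Socs3 (12702) at chr11:117966079-117970336.

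Promoter windows of 4 of the 5 ligands are shown because most results below concern the ligands. RefSeq windows on GRCm38.p6 matched 9 of the 10 members, all but Csf3, and the 250 bases before the annotated start were searched on both strands. The motifs were the NF-kB site (by its usual degenerate consensus), the STAT site TTCNNNGAA, the AP-1 site TGANTCA and the C/EBP site TTNNGCAA, which share no overlapping matches in these windows. Capitals mark the matches, and each window is written 5′ to 3′ on the strand of its gene: Il6 at chr5:30012864-30013113 and Lif at chr11:4257318-4257567 on the plus strand, Csf1 at chr3:107760470-107760719 and Csf2 at chr11:54249900-54250149 on the minus strand.
Il6: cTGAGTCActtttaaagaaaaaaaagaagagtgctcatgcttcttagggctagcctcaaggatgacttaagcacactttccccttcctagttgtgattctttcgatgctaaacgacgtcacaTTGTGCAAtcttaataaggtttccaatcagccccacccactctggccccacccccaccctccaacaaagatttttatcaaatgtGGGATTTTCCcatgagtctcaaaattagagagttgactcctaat
Lif: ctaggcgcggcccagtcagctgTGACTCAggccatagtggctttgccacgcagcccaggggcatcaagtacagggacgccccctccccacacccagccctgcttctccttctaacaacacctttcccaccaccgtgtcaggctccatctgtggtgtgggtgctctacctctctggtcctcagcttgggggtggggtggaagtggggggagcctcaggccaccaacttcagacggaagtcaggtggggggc
Csf1: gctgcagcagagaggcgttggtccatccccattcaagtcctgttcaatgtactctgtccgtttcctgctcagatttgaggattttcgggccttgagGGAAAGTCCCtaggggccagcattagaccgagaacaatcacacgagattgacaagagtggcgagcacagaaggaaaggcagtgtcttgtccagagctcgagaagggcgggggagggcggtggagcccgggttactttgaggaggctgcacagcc
Csf2: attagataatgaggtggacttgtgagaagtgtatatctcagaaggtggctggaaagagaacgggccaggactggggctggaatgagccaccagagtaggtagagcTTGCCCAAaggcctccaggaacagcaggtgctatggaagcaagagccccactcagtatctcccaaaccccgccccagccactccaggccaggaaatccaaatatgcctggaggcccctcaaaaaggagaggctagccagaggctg
The Il6 window held an NF-kB match (GGGATTTTCC, beginning 44 bases before the start), a C/EBP match (TTGTGCAA, at 128 bases) and an AP-1 match (TGAGTCA, at 249 bases). Lif held an AP-1 match (TGACTCA, at 228 bases), Csf1 an NF-kB match (GGAAAGTCCC, at 154 bases) and Csf2 a C/EBP match (TTGCCCAA, at 145 bases). Among the other members, Socs3 held a STAT match (TTCTTAGAA, at 154 bases), and Il6ra, Il6st, Stat3 and Osmr held none of the 4 motifs. The windows of Socs3 (chr11:117969367-117969616) and Osmr lie inside the gene spans given above, and that of Stat3 partly so. The annotated starts used for these windows thus differ from the ends of those spans. Among 32817 promoter windows of this length, 3.9% held the NF-kB motif, 7.01% the STAT motif, 6.75% the AP-1 motif and 9.57% the C/EBP motif. A match is a description of the letters and not a site shown to be used.

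Csf3 was the most abundant member in endothelial cells. Its mean level per kb of transcript was 39566 normalised counts, rank 23 of 20015 genes with a length, and it held 0.2105% of all normalised counts. Socs3 (6202 per kb, rank 297) and Il6 (5046 per kb, rank 385) followed, then Stat3 (1956), Csf1 (1439), Lif (865) and Il6st (864). Csf2 (398), Osmr (287) and Il6ra (33.7, rank 9183) were the lowest. In microglia Socs3 led (2749 per kb, rank 802), followed by Stat3 (1204), Il6st (509), Csf1 (448) and Csf3 (404). Il6 (166), Lif (114) and Il6ra (53.6) lay lower there, Csf2 averaged 0.422 per kb, and Osmr was listed at 0 in all 11 libraries. The tables of the 2 cell types were normalised separately, so levels are set side by side across them with no test. Neighbours in either order overlapped over libraries in most cases: Lif and Il6st in endothelial cells had nearly the same mean, while endothelial Csf3 had no neighbour within its range (13344 to 80803 per kb, against 4592 to 9654 for Socs3).

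**Figure D1:**
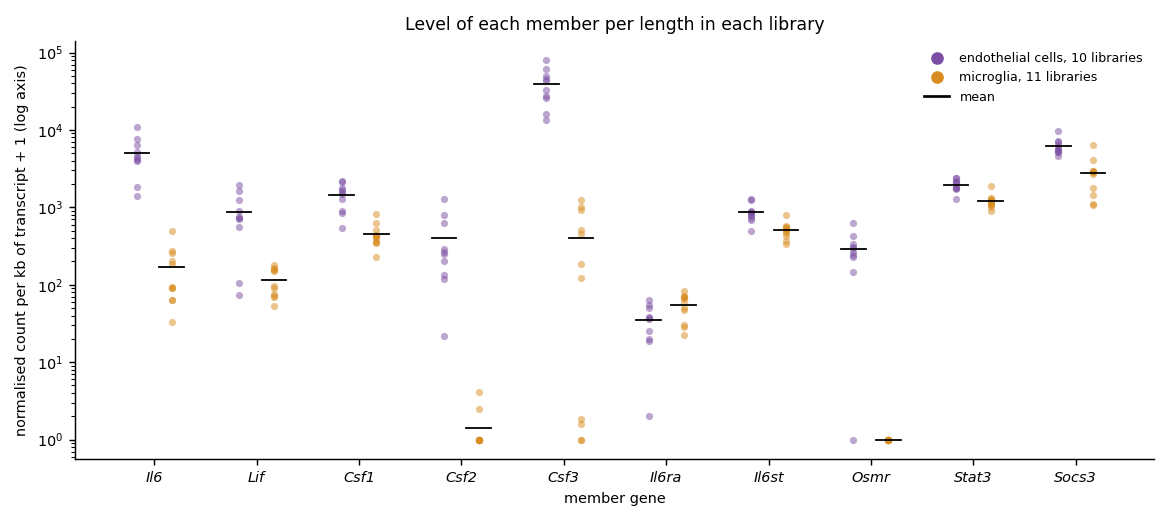
Level of each member per kb of transcript, as normalised count + 1 on a log axis, with 1 point per library (10 endothelial, 11 microglia) and a bar at the mean. Endothelial Csf3 stands highest at 13344 to 80803 per kb, and Osmr is listed at 0 in all 11 microglia libraries and in 1 endothelial library.

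Among the ligands in endothelial cells, Csf3 stood highest with WT exosomes. Its normalised counts with PBS were 46419, 36332 and 22403 in libraries A, B and C. With WT exosomes they were 114174 in A and 63846 in B. Both WT libraries lay above all 3 PBS libraries, as they did for 15.7% of all genes tested. The WT mean of 89010 ± 35587 (SD, n = 2) was 2.54 times the PBS mean of 35051 ± 12059 (SD, n = 3). Within letters the ratio was 2.46 in A and 1.76 in B.

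With KO1 exosomes Csf3 read 86701 in A, 70688 in B and 18855 in C, and with KO2 exosomes 60346 in B and 39298 in C. The knockout libraries thus spanned the range from below the lowest PBS library to between the 2 WT libraries. Against PBS of the same letter, KO1 stood at 1.87 in A, 1.95 in B and 0.842 in C, and KO2 at 1.66 in B and 1.75 in C. Against WT of the same letter, KO1 stood at 0.759 in A and 1.11 in B, and KO2 at 0.945 in B. The 3 libraries lettered C were the lowest of their groups.

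On the deposited log2 scale, which compresses differences, Csf3 was 1.01 higher with WT than with PBS (SE 0.40, 95% interval 0.15 to 1.88). The adjusted p by limma was 0.4439, so the difference did not pass the test, and over the 19 alternatives it kept its sign with values from 0.67 to 1.39 and adjusted p from 0.1781 to 0.9168. No endothelial WT library was lettered C, while PBS, KO1 and KO2 each included C, so group and letter are partly mixed here. With a term for the letter WT minus PBS was 0.71, and without the letter C libraries 0.82. The knockout mean stood 0.61 below WT on that scale (95% interval -1.41 to 0.19, adjusted p = 0.659 by limma), with the same mixing of group and letter. Over its 19 alternatives that difference ran from -1.16 to -0.18 (adjusted p = 0.4083 to 0.9544 by limma), with -0.27 without WT A and -0.96 without WT B. KO1 minus KO2 gave 0.05 for Csf3 (95% interval -0.81 to 0.92), which leaves room for a difference either way.

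Choroid plexus and ependyma markers were far higher with WT than with PBS and spread widely within KO1 and KO2. Their sum in endothelial libraries was 965 to 7390 with PBS (1 to 3 of 12 markers at 100 or more), 205190 to 233541 with WT (8 to 9 of 12), 6727 to 359990 with KO1 and 22988 to 312614 with KO2. Foxj1 was listed at 0 in all PBS and all KO2 libraries and Tmem212 in all KO1 libraries. The lowest exosome libraries for these markers were KO1 C and KO2 C, which were also the lowest exosome libraries for Csf3. KO1 C (6727) lay within the PBS range, and no WT library was lettered C, so group and letter are mixed here too. Other marker sums were also without overlap between WT and PBS. Those of fibroblasts and meninges (1859 to 3847 with WT, 593 to 1501 with PBS) and of microglia (1168 to 3244 against 787 to 1034) were higher with WT. Those of astrocytes (9295 to 16550 against 19083 to 41702), endothelium (240483 to 266889 against 273624 to 301025), border-associated macrophages (8049 to 8314 against 8559 to 12901) and lymphocytes (16 to 22 against 26 to 58) were lower. Except for endothelium (11 of 12), few markers reached 100 in these WT and PBS libraries. They were 2 to 3 of 10 for fibroblasts, 1 to 3 of 13 for microglia and 1 to 5 of 12 for astrocytes. Border-associated macrophages had 1 to 4 of 10 and lymphocytes 0 of 9. Of single genes tested, 15.7% lay higher with WT without overlap and 18.7% lower. The part of any of these markers in the Csf3 difference was not tested. In bulk RNA, fewer cells of a type and less RNA per cell cannot be told apart.

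Il6, the founding cytokine of the family, overlapped between all groups in endothelial cells. Its normalised counts were 3319, 12164 and 9612 with PBS (A, B, C), 4308 and 25623 with WT (A, B), 10025, 15102 and 10721 with KO1 (A, B, C), and 17922 and 9438 with KO2 (B, C). PBS A and WT A were the lowest 2 libraries. Within letters WT over PBS was 1.3 in A and 2.11 in B, while KO1 over WT was 2.33 in A and 0.589 in B. The fitted WT minus PBS difference was 0.29 (SE 0.30, adjusted p = 0.7785 by limma), and it turned to -0.30 without the WT B library.

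Lif, which acts through the LIF receptor and the shared chain, spread widely. It read 294, 3580 and 2252 with PBS, 3012 and 7889 with WT, 6629, 2937 and 419 with KO1, and 4970 and 2857 with KO2. PBS A and KO1 C were far below the others. The mean was 2042 ± 1653 (SD, n = 3) for PBS against 5451 ± 3449 (SD, n = 2) for WT, and the fitted difference was 0.42 (SE 0.24, adjusted p = 0.5768 by limma).

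Csf1 was steadier, with 6553, 3576 and 5314 counts with PBS, 7392 and 6257 with WT, 9121, 6965 and 2288 with KO1, and 8853 and 3774 with KO2. Groups overlapped, and the fitted WT minus PBS difference was 0.15 (SE 0.18, adjusted p = 0.8168 by limma). Csf2, the weakest of the 5 ligands, read 93.6, 198 and 16.5 with PBS, 629 and 230 with WT, 210, 107 and 163 with KO1, and 1031 and 504 with KO2. Both WT libraries lay above all PBS libraries, against the same background of 15.7%. Csf2 was the member with the smallest unadjusted p for KO1 minus KO2 (-0.21, SE 0.08, unadjusted p = 0.02818, adjusted p = 0.7509 by limma) and for the knockout mean minus PBS (0.15, SE 0.07, adjusted p = 0.8984). Neither passed the test.

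**Figure D2:**
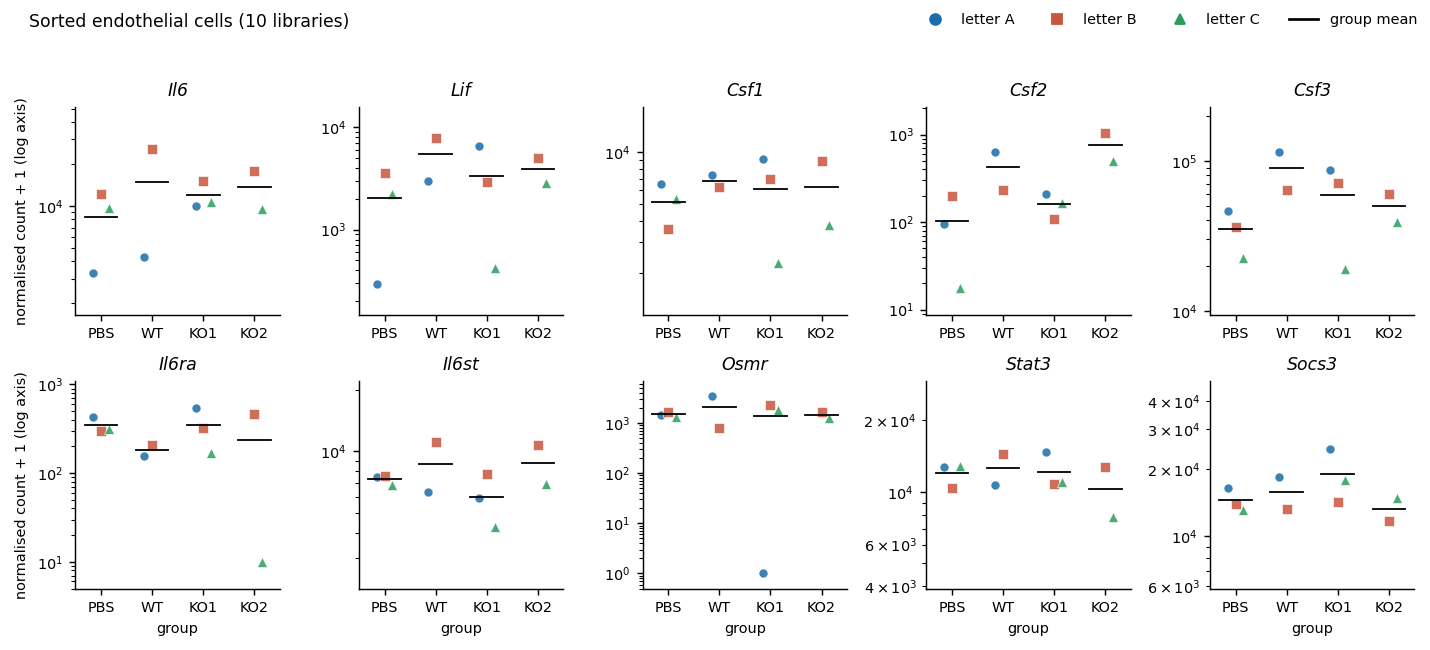
Normalised count + 1 (log axis) of the 10 members in the endothelial libraries by group, with the letter as the symbol and a bar at the group mean. Csf3 and Csf2 are higher in both WT libraries than in all 3 PBS libraries, while Osmr is listed at 0 in KO1 A and Il6ra is at 8.99 in KO2 C.

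Of the receptor chains in endothelial cells, the shared chain Il6st was abundant and Il6ra scarce. Il6st read 7505, 7606 and 6858 with PBS, 6326 and 11056 with WT, 5928, 7785 and 4259 with KO1, and 10714 and 6897 with KO2. Il6ra read 429, 300 and 315 with PBS and 155 and 209 with WT, so that both WT libraries lay below all PBS libraries, as they did for 18.7% of all genes. With knockout exosomes Il6ra read 546, 319 and 165 in KO1 and 464 and 8.99 in KO2. Its fitted WT minus PBS difference was -0.07 (SE 0.09, adjusted p = 0.8262 by limma), on a scale where so low a gene has little room to move. Osmr, the oncostatin M receptor chain, read 1470, 1686 and 1321 with PBS, 3446 and 797 with WT, 2323 and 1854 in KO1 B and C, and 1638 and 1248 with KO2. KO1 A was listed at 0 for Osmr, although its depth was 25.9 M estimated reads. Whether a listed 0 is a failed transcript estimate was not tested, so neither this 0 nor those of Osmr and P2ry12 in microglia can be read as absence.

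Stat3 and Socs3 were high in every endothelial library. Stat3 read 12692, 10382 and 12915 with PBS, 10723 and 14416 with WT, 14673, 10777 and 11047 with KO1, and 12758 and 7828 with KO2. Socs3 read 16384, 13959 and 13131 with PBS, 18321 and 13263 with WT, 24636, 14232 and 17804 with KO1, and 11719 and 14831 with KO2. All groups overlapped for both genes. WT minus PBS was 0.03 for Stat3 (95% interval -0.23 to 0.29) and 0.06 for Socs3 (95% interval -0.23 to 0.36).

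No member passed an adjusted p of 0.05 by limma in any endothelial comparison, where 10 of 10 members were tested. Of all 10351 genes tested, 0.00966% passed for WT minus PBS, 0.00966% for the knockout mean minus WT, 0% for the knockout mean minus PBS and 0% for KO1 minus KO2. At an unadjusted p of 0.05, 1 member passed for WT minus PBS (Csf3), against 9.77% of all genes. For the knockout mean minus WT 0 members passed at that level, against 8.84%. For the knockout mean minus PBS 1 member passed (Csf2), against 5.4%, and for KO1 minus KO2 1 member (Csf2), against 6.13%. For WT minus PBS 9 of 10 members lay above 0, with a median difference of 0.12 against -0.01 over all genes. For the knockout mean minus WT 3 lay above and 7 below, with a median of -0.08 against 0.005 over all genes. Both comparisons share the WT libraries. Groups did not overlap for 2 members higher with WT than with PBS (Csf2 and Csf3), against a background of 15.7% of all genes, and for 1 member lower (Il6ra), against 18.7%. With all exosome libraries set against PBS, 0 members were without overlap, against 1.24% of genes higher and 1.36% lower. The same count for the knockouts against WT was 0, against 4.52% and 4.7%.

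**Figure D3:**
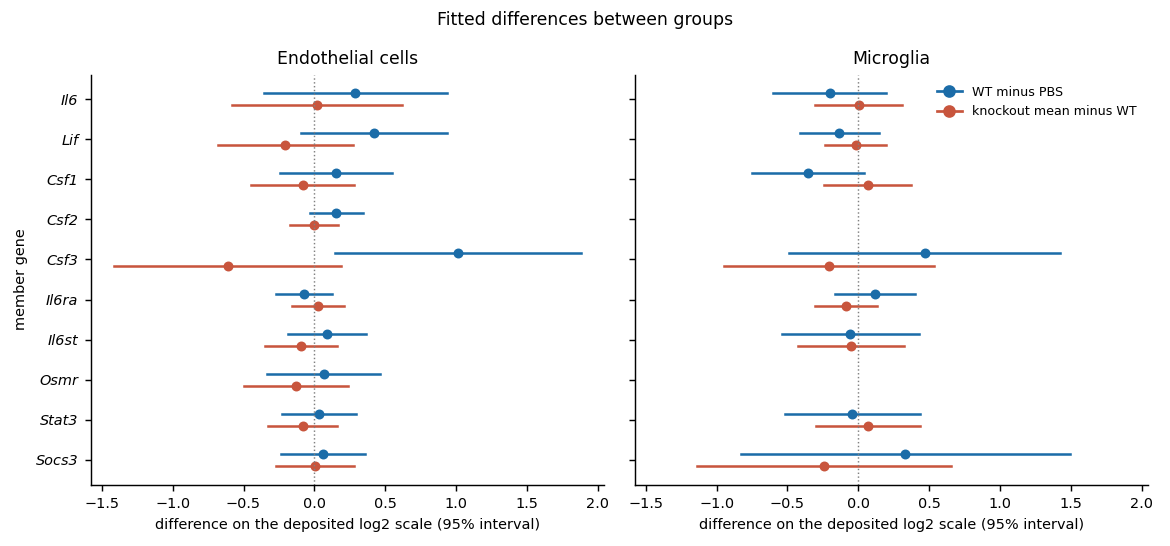
Fitted differences with 95% intervals on the deposited log2 scale, WT minus PBS and knockout mean minus WT, for the members tested in each cell type (10 in endothelial cells, 8 in microglia). Endothelial Csf3, WT minus PBS, is the member whose interval lies above 0 (0.15 to 1.88), and all other intervals drawn include 0.

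In microglia the ligands had lower counts, and Csf3 was at or near 0 in every library lettered C. Csf3 read 1.17 and 171 with PBS (A, B), 1736, 1321 and 0 with WT (A, B, C), 1424, 727 and 0.842 with KO1, and 263, 635 and 0 with KO2. A value of 1.17 in PBS A or 0.842 in KO1 C is about 1 read. All 3 libraries lettered C were therefore at 1 read or none, while every exosome library lettered A or B held 263 or more. Within letter B, Csf3 stood at 7.72 times PBS with WT, 4.25 times with KO1 and 3.71 times with KO2. Over groups, the mean was 86.2 ± 120 (SD, n = 2) for PBS against 1019 ± 906 (SD, n = 3) for WT, and the fitted difference was 0.47 (SE 0.44, adjusted p = 0.9626 by limma). It was 0.93 without the letter C libraries (adjusted p = 0.4294 by limma) and 0.82 with a term for the letter (adjusted p = 0.171 by limma). Leaving out single libraries moved it to 0.20 (WT A), 0.27 (PBS A), 0.28 (WT B) or 0.93 (WT C).

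Il6 read 1155 and 210 with PBS, 467, 426 and 75.2 with WT, 632, 217 and 146 with KO1, and 210, 605 and 145 with KO2. The 3 libraries lettered C were the lowest of all. WT over PBS was 0.404 within A and 2.03 within B, so the letters differed in direction, and the fitted difference was -0.20 (SE 0.18, adjusted p = 0.9626 by limma). Lif read 655 and 639 with PBS and 302, 386 and 607 with WT, lower without overlap, as were 9.92% of all genes tested. With KO1 Lif read 619, 273 and 284, and with KO2 213, 367 and 712. WT minus PBS was -0.13 (SE 0.13, adjusted p = 0.9626 by limma). Csf1 read 1799 and 3472 with PBS, 1805, 1472 and 1426 with WT, 2585, 1675 and 1765 with KO1, and 961, 1464 and 2147 with KO2. Its WT minus PBS difference of -0.36 (SE 0.18, adjusted p = 0.9406 by limma) had the smallest p among the members, and PBS B alone lay far above the WT libraries. Csf2 was at 2.53 normalised counts or less in every microglia library and was not tested.

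Of the receptors in microglia, Il6ra read 255 and 509 with PBS, 580, 712 and 418 with WT, 606, 588 and 185 with KO1, and 239, 595 and 402 with KO2. Il6st read 6964 and 2911 with PBS and stayed between 3184 and 4981 in the 9 exosome libraries. Osmr was listed at 0 throughout and was not tested, although Osm, which encodes its ligand, ranged from 5369 to 11744 in microglia. Osm was singled out after its values were seen. Stat3 lay between 5475 and 11234 in all libraries, with the highest value in KO1 B.

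Socs3 in microglia followed the letters as Csf3 did. It read 4557 and 6929 with PBS, 16249, 7515 and 2823 with WT, 10413, 7376 and 2762 with KO1, and 7554, 7275 and 3710 with KO2. The 3 libraries lettered C were the lowest 3. WT over PBS was 3.57 within A and 1.08 within B, and the fitted difference was 0.33 (SE 0.53, 95% interval -0.83 to 1.49, adjusted p = 0.9774 by limma).

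**Figure D4:**
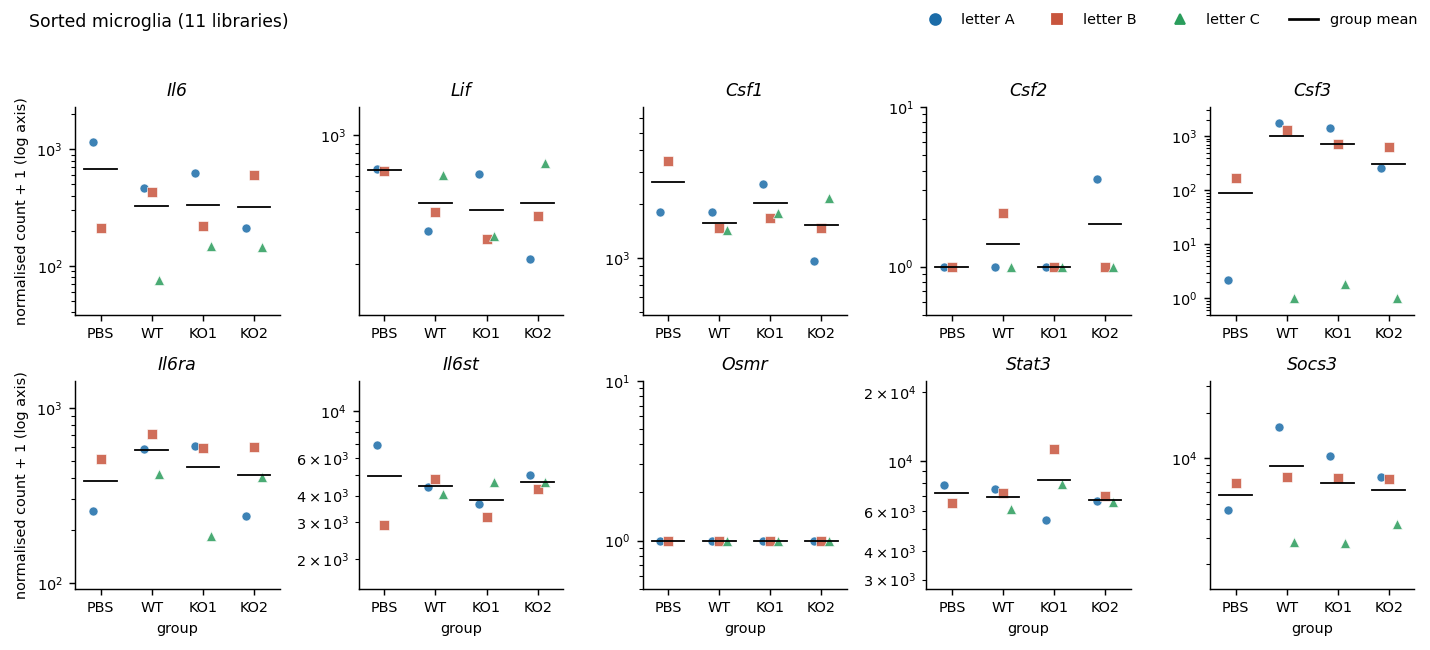
Normalised count + 1 (log axis) of the 10 members in the microglia libraries by group, with the letter as the symbol and a bar at the group mean. The letter C libraries are the lowest of their group for Il6, Csf3 and Socs3, and Osmr is listed at 0 in all 11 libraries.

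No member passed an adjusted p of 0.05 by limma in any microglia comparison, where 8 of 10 members were tested. Of all 9740 genes tested, 0% passed in each of the 4 comparisons. At an unadjusted p of 0.05, 0 members passed in any of them, against 5.24% of all genes for WT minus PBS, 3.21% for the knockout mean minus WT, 5.36% for the knockout mean minus PBS and 3.33% for KO1 minus KO2. For WT minus PBS 3 of 8 members lay above 0 and 5 below, with a median of -0.05 against -0.002 over all genes. WT and PBS did not overlap for 0 members higher with WT, against 9.18% of all genes, and for 1 member lower (Lif), against 9.92%. No member was without overlap between the knockouts and WT, against 0.862% higher and 0.883% lower, or between all exosome libraries and PBS, against 2.1% and 2.29%.

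The letter comparison was made after these values were seen. In microglia, 3 members had no overlap between the 3 libraries lettered C and the 8 lettered A or B, all lower in C (Il6, Csf3 and Socs3), against 1.45% of all genes lower and 1.22% higher. For Csf3 PBS A (1.17) and KO1 C (0.842) each held about 1 read, so these 2 libraries are apart through the scaling by depth and not in reads. In a limma fit with group and letter, C minus the mean of A and B was -1.06 for Csf3 (SE 0.15, adjusted p = 0.006893). Socs3 gave -1.18 (SE 0.22, adjusted p = 0.03471), and Il6 gave -0.23 (SE 0.13, adjusted p = 0.5857). Of all genes, 0.893% passed as lower in C. The letter fits treat libraries of a letter as independent. If a letter is 1 animal, culture or day, C has no replicate and these p-values measure only scatter between libraries. The Csf3 call was lost without WT C (-0.90, adjusted p = 0.08212 by limma) or KO1 C (-1.11, adjusted p = 0.05775). The Socs3 call was lost without any 1 of 6 exosome libraries: WT C, KO1 A, KO1 B, KO1 C, KO2 B or KO2 C (-1.39 to -1, adjusted p = 0.06996 to 0.3333 by limma).

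In endothelial cells Csf3 also stood lower in C, by -0.92 (SE 0.16), with an adjusted p of 0.2355 by limma, and 0% of genes passed as lower. No member was without overlap between C and the other letters, against 1.02% of genes lower and 1.13% higher. Socs3 gave -0.05 and Il6 0.01 there. Choroid plexus and ependyma markers summed to 31 to 52 in the letter C microglia libraries, 75 to 9029 in A and 480 to 12749 in B. Folr1, Clic6, Otx2, Aqp1, Foxj1 and Enpp2 were listed at 0 in all 3 C libraries. All of these but Enpp2 were also listed at 0 in every WT and every KO1 library, so their 0 is not particular to C. Markers of border-associated macrophages summed to 2643 to 3433 in C, 4806 to 5420 in A and 2767 to 9434 in B. Endothelial markers, from the cells where Csf3 was highest, summed to 225 to 437 in C, 361 to 679 in A and 392 to 935 in B. Only 1 to 2 of these 12 markers reached 100 in any microglia library. Flt1, Tek, Tie1, Emcn, Slco1a4, Ly6c1 and Erg were listed at 0 in all 3 C libraries. Of these, Flt1, Tek, Emcn, Slco1a4 and Ly6c1 were also at 0 in every PBS and every WT library, and Erg in every KO1 library. Sums of the remaining lists in C overlapped those of A and of B, with microglia markers at 27897 to 35906 in C. The exception was oligodendrocyte markers, which in C (4232 to 5319) overlapped A (3199 to 5098) and lay below B (6738 to 9194). The part of any of these markers in the letter difference was not tested. No PBS library lettered C was analysed in microglia, so the letter difference there rests on the exosome groups.

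**Figure D5:**
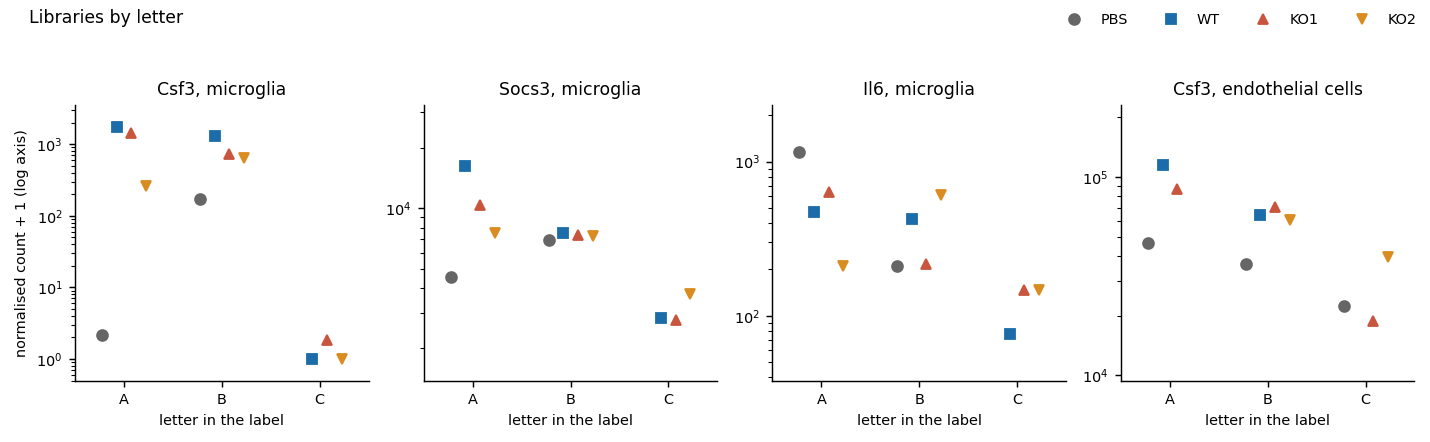
Normalised count + 1 (log axis) by letter for Csf3, Socs3 and Il6 in microglia and Csf3 in endothelial cells, with the group as the symbol. In microglia the letter C libraries hold 2762 to 3710 counts of Socs3, below all A and B libraries, and 0 to 0.842 of Csf3, where KO1 C and PBS A (1.17) are at about 1 read each.

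The genes whose deposited log2 values were most like those of Il6 and Csf3 across libraries were ranked by Pearson's r as a description, since all values of a library share its depth and letter. Over 10 endothelial libraries Csf3 was most like Igfbp3 (r = 0.966), which encodes a carrier of insulin-like growth factors, Gbp5 (0.954), an interferon-inducible guanylate-binding protein, and Upp1 (0.948), a uridine phosphorylase. The member nearest to it was Csf1 (0.793), while Il6 gave -0.029. Over 11 microglia libraries Csf3 was most like Il1a (0.974), which encodes interleukin-1 alpha, Nfkbia (0.969), which encodes the NF-kB inhibitor, and Sod2 (0.961), a mitochondrial superoxide dismutase. Socs3 was the nearest member (0.917). Il6 was most like Rad23b (0.921), Rsu1 (0.918) and Zfyve21 (0.909) in endothelial cells and Atg5 (0.945), Smim3 (0.901) and Oaf (0.891) in microglia.

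The rest of the pathway was described from 6 lists, and no listed gene passed the adjusted test in any comparison of either cell type. For endothelial WT minus PBS, 5 of 13 other ligands were tested, with 3 above 0 and 2 below. The smallest p in that list belonged to Kitl, stem cell factor, at -0.61 (SE 0.18, adjusted p = 0.3512 by limma). Of 7 tested among 11 other receptors, 4 were above and 3 below. Lifr, the LIF receptor chain, gave -0.20 (SE 0.08, adjusted p = 0.4382). Csf3r, which encodes the G-CSF receptor and was singled out after its values were seen, reached at most 22.2 counts in endothelial cells and 130 in microglia. Brakes and shedding enzymes held 4 of 9 above, led by Adam10, a protease that sheds receptors, at -0.35 (SE 0.18, adjusted p = 0.543).

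Among 23 tested STAT3 targets, 15 lay above 0 and 8 below for endothelial WT minus PBS, and the list's median difference was 0.20 against -0.01 over all genes. At an unadjusted p of 0.05, 7 of the 23 passed, against 9.77% of all genes, led by Il1rn, the interleukin-1 receptor antagonist, at 0.45 (SE 0.09, adjusted p = 0.2274 by limma) and Mcl1, a survival factor, at -0.42 (SE 0.10, adjusted p = 0.2853). The list was chosen with earlier results of these data known, so its share is a description only. For the knockout mean minus WT the same list gave 10 above and 13 below, with a median of -0.01. Regulators of Il6 transcription and mRNA decay held 9 of 13 above for WT minus PBS, led by Cebpb, a C/EBP factor, at 0.48 (SE 0.16, adjusted p = 0.411). In microglia 14 of 18 tested STAT3 targets lay above 0 for WT minus PBS, with a median of 0.09 against -0.002 over all genes. The smallest p values there belonged to Hif1a, the oxygen-responsive factor, at -0.51 (SE 0.17, adjusted p = 0.9108 by limma) and Saa3, an acute phase protein, at 0.48 (SE 0.18, adjusted p = 0.9108). Clcf1, a ligand of the family, gave 0.34 (SE 0.15, adjusted p = 0.9406) and Zc3h12a, a nuclease that degrades Il6 mRNA, 0.27 (SE 0.17, adjusted p = 0.9468). Of other microglia lists, 3 of 4 ligands, 2 of 5 receptors, 4 of 10 brakes and shedding enzymes and 7 of 13 regulators lay above 0 for WT minus PBS. In the authors' deposited table of genes that differed among the groups, 0 of the 10 members are listed in either cell type. From the other lists, the endothelial table lists 1 of 11 other receptors (Lifr) and 4 of 24 STAT3 targets (Ch25h, Il1rn, Lrg1 and Myc). The microglia table lists 1 of 24 STAT3 targets (Pim1).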

How the data were processed

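RNA of cells sorted from mouse brain slices was sequenced. The submitters' processing notes name FastQC 0.11.7, Trimmomatic 0.38, Salmon 0.10.0, DESeq2 1.18.1 and GRCm38.p6, with no role or order. The authors deposited 1 table per cell type of log2 values for 20555 genes, which the labels name as variance-stabilised (vst). The authors also deposited, per the file headers, tables of genes from a likelihood ratio test, with a mean normalised signal, log2 fold changes, scores (standard error and test statistic) and p-values, which were used here only for gene membership and for the scale of the counts. Their contrast is not stated in the labels or headers. Deposited columns of per-sample values were all mapped to a labelled sample.

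Gene identifiers were matched to symbols (20537 of 20555). Normalised counts were recovered from the deposited log2 values by inverting the transform. The recovered mean divided by the authors' deposited mean signal was 1.0 for all 362 listed endothelial genes and 0.9986 to 1.002 for 238 microglia genes, and microglia genes held out of the fitted curve differed by at most 0.4846%. The smallest steps between low values were taken as 1 read and gave the depths. In microglia these steps (1, 2 and 3 reads) also anchored the curve below the authors' means, so values there between a few and about 50 counts are approximate. Levels per kb used the longest coding transcript (GENCODE M21).

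Differences of the log2 values were fitted with limma (3.58.1, R 4.3.3), using its trend of variance with mean, all groups of a cell type in 1 fit, no term for the letter, genes with a mean recovered count of at least 50, and Benjamini-Hochberg adjustment over all genes (threshold 0.05). The script was tested on simulated data. Python 3.11.15 and matplotlib 3.10.9 made tables and figures. Alternatives were other filters, log2 of recovered counts with pseudocounts of 10 and 50, quantile normalization, a term for the letter, only the groups compared, and leaving out letters or single libraries. All 10 members were named with every library, the 2 or fewer genes of smallest p per other list, and the 3 genes most like Il6 and Csf3. Members and lists were chosen with earlier results of these data known. The results of 1 other list are not reported here.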

Additional observations from a re-analysis of the deposited data

How the results depend on the processing

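No member passed the test by limma in the 8 group comparisons under any alternative. Of 38 member differences, 13 kept their sign under all alternatives run: endothelial Csf1 WT minus PBS, microglia Csf1 WT minus PBS, endothelial Csf2 WT minus PBS, endothelial Csf3 knockout mean minus WT, endothelial Csf3 WT minus PBS, microglia Csf3 WT minus PBS, microglia Il6ra knockout mean minus WT, endothelial Il6ra WT minus PBS, microglia Il6ra WT minus PBS, endothelial Lif WT minus PBS and microglia Lif WT minus PBS, and the letter differences of Csf3 and Socs3 in microglia. The other 25, none of which had passed the test, turned in at least 1, and the cause was not tested. With a block for the letter, the sign turned for Stat3 (-0.001) for WT minus PBS in endothelial cells, for Csf1 (0.076), Csf2 (0.035) and Il6 (-0.079) for knockout mean minus WT in endothelial cells. Without the letter C libraries, the sign turned for Stat3 (0.031) for WT minus PBS in microglia, for Csf1 (0.12), Csf2 (0.030), Il6st (0.010), Socs3 (-0.030) and Stat3 (0.012) for knockout mean minus WT in endothelial cells, for Csf1 (-0.003), Il6 (-0.031) and Lif (0.010) for knockout mean minus WT in microglia. With quantile normalization, the sign turned for Csf2 (0.001) and Il6 (-0.004) for knockout mean minus WT in endothelial cells. Without the letter B libraries, the sign turned for Il6 (-0.16), Il6st (-0.069) and Stat3 (-0.12) for WT minus PBS in endothelial cells, for Il6ra (-0.028) and Socs3 (-0.025) for knockout mean minus WT in endothelial cells, for Il6st (0.051) and Stat3 (-0.029) for knockout mean minus WT in microglia. On log2 of the recovered count plus 10, the sign turned for Il6ra (-0.13) and Socs3 (-0.001) for knockout mean minus WT in endothelial cells. On log2 of the recovered count plus 50, the sign turned for Socs3 (-0.001) for knockout mean minus WT in endothelial cells. With 1 library left out in turn, WT minus PBS in endothelial cells ran across 0 for Il6 (-0.30 to 0.88), Il6st (-0.080 to 0.26), Osmr (-0.15 to 0.28), Socs3 (-0.063 to 0.18) and Stat3 (-0.074 to 0.13). With 1 library left out in turn, WT minus PBS in microglia ran across 0 for Il6 (-0.47 to 0.068), Il6st (-0.51 to 0.40), Socs3 (-0.18 to 0.84) and Stat3 (-0.15 to 0.073). With 1 library left out in turn, knockout mean minus WT in endothelial cells ran across 0 for Csf1 (-0.19 to 0.028), Csf2 (-0.075 to 0.068), Il6 (-0.57 to 0.61), Il6ra (-0.043 to 0.091), Il6st (-0.26 to 0.072), Lif (-0.43 to 0.026), Osmr (-0.35 to 0.084), Socs3 (-0.12 to 0.13) and Stat3 (-0.19 to 0.022). With 1 library left out in turn, knockout mean minus WT in microglia ran across 0 for Csf3 (-0.67 to 0.063), Il6 (-0.10 to 0.061), Lif (-0.062 to 0.037), Socs3 (-0.75 to 0.27) and Stat3 (-0.042 to 0.18).

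Counts of all genes called moved too. For endothelial WT minus PBS, 1 gene passed in the reported fit. It was 0 with the filter of 1 above the floor, with a block for the letter, with only the groups compared and without the letter B or C libraries, 9 with no filter, 3 with a pseudocount of 10 and 2 with 50, and 0 to 4 with 1 library left out. For the endothelial knockout mean minus WT, 1 gene passed. It was 0 with that filter, with the block, with only the groups compared and without letter B or C, 6 with no filter, 10 and 2 with the pseudocounts of 10 and 50, and 0 to 2 with 1 library left out. The endothelial knockout mean minus PBS rose from 0 to 17 with no filter and to 1 without letter C, and endothelial KO1 minus KO2 from 0 to 3 with no filter, 1 with the filter of 1 above the floor and 1 with the block. In microglia, no filter gave 1 for WT minus PBS, 1 for the knockout mean minus PBS and 1 for KO1 minus KO2. The block gave 25 for WT minus PBS and 16 for the knockout mean minus PBS, which also gave 2 with the pseudocount of 50 and 0 to 1 with 1 library left out. The count of members called for letter C in microglia fell from 2 to 1 with the filter of 1 above the floor, which Csf3 did not pass, and was 0 to 2 with 1 library left out.

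Whether the letters pair the libraries was checked by the correlation of deviations from the group means. Same-letter pairs of endothelial libraries gave 0.022 to 0.23 and those of microglia 0.008 to 0.374, and pairs of other letters -0.23 to 0.115 and -0.282 to 0.074. As not every same-letter pair exceeded 0.1, the letters were not taken to pair the samples. That bound was a choice, since the same-letter medians were 0.1225 and 0.096, against -0.049 and -0.051 for other letters. Deviations from a group mean sum to 0 within the group, so same-letter values above 0 bring other-letter values below 0. In groups of 2 libraries they are mirror images, such as endothelial PBS A with WT A (0.124) and with WT B (-0.124). The other-letter values are therefore no separate evidence of pairing. The reported fits may thus leave a pairing unused. The block changed no member's call, although it raised the genes called for microglia WT minus PBS to 25. As a hint from the data and not the design, 9 of 10 endothelial and 10 of 11 microglia libraries correlated best with one of their own letter. These best matches come from the same linked deviations and do not count as independent cases. Groups of 2 or 3 libraries limit the precision, and the values of Csf2 and letter C Csf3 in microglia rest on 1 read or a few.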
